A study of Mus musculus with 10 samples.

Results

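The 8 genes examined here, Hmgcs1, Sqle, Fdps, Fdft1, Lss, Cyp51, Srebf2 and Insig1, belong to the synthesis of cholesterol and its control. They were chosen by symbol, as the rows of the count table that carry these names in the ΔGm15551 and wild type columns, and they make up 8 of 54347 gene records. All 8 passed the filter on low counts and were tested. The working name of the set also speaks of cholesterol uptake, but none of its members encodes a receptor that takes up lipoprotein cholesterol, so the set is described here as 6 enzymes of synthesis, a transcription factor and a regulator of that factor. Genes of uptake were examined as a separate list.

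RNA was sequenced from interscapular brown fat (iBAT), a depot that burns lipid to produce heat, in 10 mice whose background strain was C57BL/6N. In 5 of them, replicates 1, 2, 4, 5 and 7 of the ΔGm15551 group, CRISPR/Cas9 was used to delete exon 1 of the long noncoding RNA gene Gm15551, according to the methods of the study, whose coordinates for the deletion do not overlap the gene in the annotation used here. The other 5, replicates 2, 3, 5, 6 and 7 of the wild type group, were litter mates without the deletion. All mice of both groups were 12 weeks old, ate chow and spent the last 24 h alone in a cage at 4 °C. The deletion is present in every cell of the animal rather than in adipocytes alone, it was backcrossed for 2 generations, and no mice at room temperature were analysed here, so that the values describe the genotype in the cold and not a response to cold.

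Mammalian cells build cholesterol from acetyl-CoA through the mevalonate pathway. Its enzymes first make isoprenoid units, join them into squalene, close squalene into the ring system of lanosterol and then trim lanosterol to cholesterol. When sterols in the membrane of the endoplasmic reticulum run low, the transcription factor SREBP-2 is carried to the Golgi, cut, and sent to the nucleus, where it turns on the genes of nearly every step. When sterols are plentiful, Insig proteins hold the SREBP-2 precursor and its escort Scap in the endoplasmic reticulum. Brown adipocytes in the cold take up lipoproteins and also make fatty acids, a pathway whose genes the related factor SREBP-1 can turn on.

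SREBP proteins act at sterol regulatory elements in promoters, often beside a box for the factor NF-Y, and for this reason the promoters were read for those letters. Of the 8 genes, 5 had an entry in the RefSeq promoter table for GRCm38.p6 (Cyp51, Insig1, Lss, Hmgcs1 and Srebf2), and 3 did not (Sqle, Fdps and Fdft1). The 250 bases before the RefSeq start are shown for 4 of them, 5′ to 3′ on the strand of the gene, as the ones that hold a match other than NF-Y alone. The windows are chr13:119690101-119690350 on the plus strand for Hmgcs1, chr15:82147019-82147268 on the plus strand for Srebf2, chr5:4104698-4104947 on the minus strand for Cyp51 and chr5:28071162-28071411 on the plus strand for Insig1. Capitals mark TCACNCCAC (the sterol regulatory element) or TCACCNCA, which has the same first letters but another free position, CCAAT (the NF-Y box, ATTGG when it lies on the other strand) and CACGTG (the E-box).
Hmgcs1: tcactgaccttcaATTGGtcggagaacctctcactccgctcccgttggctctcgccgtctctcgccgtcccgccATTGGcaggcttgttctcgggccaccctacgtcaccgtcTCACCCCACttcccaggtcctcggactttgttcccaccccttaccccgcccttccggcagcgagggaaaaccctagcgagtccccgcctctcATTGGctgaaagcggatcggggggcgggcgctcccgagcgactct
Srebf2: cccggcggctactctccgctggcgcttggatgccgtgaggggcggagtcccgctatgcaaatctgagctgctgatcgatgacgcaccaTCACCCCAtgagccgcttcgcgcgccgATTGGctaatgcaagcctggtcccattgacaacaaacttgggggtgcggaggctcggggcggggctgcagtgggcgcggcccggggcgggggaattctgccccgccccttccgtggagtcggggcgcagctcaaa
Cyp51: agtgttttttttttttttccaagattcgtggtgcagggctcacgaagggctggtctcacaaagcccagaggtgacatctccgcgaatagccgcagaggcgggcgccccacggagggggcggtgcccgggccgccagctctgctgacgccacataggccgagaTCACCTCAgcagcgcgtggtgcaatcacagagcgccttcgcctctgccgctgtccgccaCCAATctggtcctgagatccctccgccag
Insig1: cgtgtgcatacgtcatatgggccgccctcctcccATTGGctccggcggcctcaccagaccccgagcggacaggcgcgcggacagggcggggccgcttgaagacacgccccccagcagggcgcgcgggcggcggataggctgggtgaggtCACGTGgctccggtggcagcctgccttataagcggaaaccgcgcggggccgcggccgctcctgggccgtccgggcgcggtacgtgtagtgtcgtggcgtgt

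The sterol regulatory element TCACNCCAC, searched on both strands, was found in 1 of the 5 promoters, that of Hmgcs1, where it began 137 bases before the start. It was held by 1.05% of the 32851 promoters in the table. The second form, TCACCNCA, which is a different pattern and not a wider version of the first, was chosen after the letters had been seen, overlaps the first motif in Hmgcs1, and was found in 3 of the 5, at 137 bases before the start in Hmgcs1, 162 in Srebf2 and 88 in Cyp51, against 3.61% of all promoters. CCAAT was present in 5 of the 5, Lss included, and in 33.8% of all promoters. Hmgcs1 held 3 copies of it, at 237, 176 and 45 bases before the start. The E-box CACGTG was found only in Insig1 among the 5, at 101 bases before the start, and in 6.02% of all promoters. These are matches of letters in one window, without a measurement of binding. Distances are counted from the RefSeq start, which is not the start of the gene in the GENCODE annotation. By the GENCODE positions given below, the windows of Srebf2, Cyp51, Insig1 and Lss reach into the gene, and the CCAAT of Cyp51 lies inside it.

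The libraries held 9680976 to 15771170 counts. Gm15551 itself had 0 counts in all 5 ΔGm15551 mice, and in wild type it had 1 count in replicate 2, 2 in replicate 3, 6 in replicate 5, 7 in replicate 6 and 0 in replicate 7, so this gene does not separate wild type replicate 7 from the ΔGm15551 mice. Brown adipocyte markers (10 of 10 tested) summed to 11502 to 15705 CPM (counts scaled to a common library total) over the 10 mice. All 5 hepatocyte markers, of which 1 was tested, summed to 1.93 to 3.58 CPM, so that the markers of the labelled tissue were high and those of liver near 0. Libraries differed in skeletal muscle RNA, with more than 0.01% of counts on 10 muscle genes in ΔGm15551 replicates 1 and 4 and wild type replicates 5 and 7. In a bulk tissue, fewer cells of a type and less RNA per cell cannot be told apart. The mouse numbers of wild type replicates 5, 6 and 7 run far above the rest and no ΔGm15551 mouse has such a number, which means that genotype and number series cannot be told apart there.

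The question asked of the 8 genes was whether their RNA differed between ΔGm15551 and wild type iBAT. None of the 8 passed the test. At an adjusted p under 0.05, 0 of the 8 were called (edgeR's quasi-likelihood test, Benjamini-Hochberg over 13733 genes; adjusted p = 0.99998 for each of the 8). Among all genes tested the same rule called 0 genes, or 0.00%. At an unadjusted p under 0.05 there were again 0 of the 8, beside 220 genes or 1.60% of all genes tested. The DESeq2 Wald test and limma-voom also called 0 genes, with 229 and 249 at an unadjusted p under 0.05, and 0 of the 8 among them. The unadjusted p of the 8 genes in the edgeR fit ran from 0.120 to 0.929. The groups overlapped in all 8, and they failed to overlap in 44 genes, or 0.320%, of those tested. Values are given as CPM scaled by TMM, the trimmed mean of M-values, and log2FC is the log2 fold change of ΔGm15551 over wild type with its standard error (SE).

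The pathway is followed from its start. Hmgcs1, the cytosolic HMG-CoA synthase that commits acetyl-CoA to the mevalonate pathway, lies on chromosome 13 (119690379 to 119708260, plus strand, GRCm38). It was at 211, 381, 370, 265 and 353 CPM in ΔGm15551 replicates 1, 2, 4, 5 and 7, and at 285, 489, 347, 346 and 200 CPM in wild type replicates 2, 3, 5, 6 and 7. The lowest and the highest mouse were both wild type, and all 5 ΔGm15551 mice fell between them. The group means were 316 ± 74.5 and 334 ± 106 CPM (SD, n = 5 each). The log2FC was -0.08 (SE 0.22, 95% interval -0.56 to 0.41).

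Fdps, farnesyl diphosphate synthase, which joins isoprenoid units into the precursor of squalene, lies on chromosome 3 (89093588 to 89101959, minus strand). It was at 50.4, 77.6, 77.4, 84.1 and 101 CPM in the ΔGm15551 mice and at 49.9, 68.2, 52.5, 89.4 and 63.7 CPM in the wild type mice, each in the order of replicates given for Hmgcs1. The ΔGm15551 mice were high apart from replicate 1, and wild type replicate 6 lay above 4 of them. The means were 78.0 ± 18.1 and 64.7 ± 15.8 CPM (SD, n = 5 each), and the log2FC of 0.27 (SE 0.19, 95% interval -0.14 to 0.68) was the largest of the 8.

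Fdft1, squalene synthase, which condenses farnesyl diphosphate into squalene, lies on chromosome 14 (63145150 to 63179578, minus strand). It was at 18.9, 40.5, 36.5, 39.3 and 43.9 CPM in the ΔGm15551 mice and at 41.5, 29.0, 30.5, 50.6 and 32.1 CPM in the wild type mice. ΔGm15551 replicate 1 lay far below all other mice, and the other 4 ΔGm15551 mice were inside the wild type range. The means were 35.8 ± 9.84 and 36.7 ± 9.13 CPM (SD, n = 5 each), with a log2FC of -0.04 (SE 0.22, 95% interval -0.50 to 0.43). In the annotation 31.9% of the 31-base words of Fdft1 occur in another gene, with both strands searched, chiefly in Ctsb. Ctsb had up to 18209 counts in a mouse, so that the split of reads between both is uncertain. For Fdps the share was 27.9% and for Hmgcs1 13.1%. The gene that shared most with them had at most 3 counts in a mouse for Fdps and 5 for Hmgcs1.

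Sqle, squalene epoxidase, one of the steps that limit the rate of the pathway, lies on chromosome 15 (59315077 to 59331192, plus strand). It was at 14.3, 53.4, 35.2, 22 and 41.1 CPM in the ΔGm15551 mice and at 19.0, 39.5, 27.6, 48.3 and 19.0 CPM in the wild type mice. Both the lowest and the highest mouse were ΔGm15551, 3.73-fold apart, which was the widest range among the 8 genes. The means were 33.2 ± 15.5 and 30.7 ± 13.0 CPM (SD, n = 5 each), and the log2FC was 0.11 (SE 0.36, 95% interval -0.69 to 0.91).

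Lss, lanosterol synthase, which closes the rings, lies on chromosome 10 (76531588 to 76557138, plus strand). It was at 25.8, 47.2, 38.3, 35.4 and 46.4 CPM in the ΔGm15551 mice and at 32.5, 38.9, 40.8, 47.1 and 31.6 CPM in the wild type mice. The groups covered nearly the same range, with ΔGm15551 replicate 1 below it. The means were 38.6 ± 8.77 and 38.2 ± 6.37 CPM (SD, n = 5 each), with a log2FC of 0.02 (SE 0.17, 95% interval -0.34 to 0.37).

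Cyp51, the demethylase that begins the trimming of lanosterol, lies on chromosome 5 (4081145 to 4104746, minus strand). It was at 30.7, 54.5, 48.7, 40.2 and 58.0 CPM in the ΔGm15551 mice and at 31.2, 58.6, 28.6, 64.8 and 38.1 CPM in the wild type mice. Wild type replicates 3 and 6 lay above all ΔGm15551 mice and wild type replicate 5 below all of them. The means were 46.4 ± 11.0 and 44.2 ± 16.4 CPM (SD, n = 5 each), and the log2FC was 0.07 (SE 0.24, 95% interval -0.45 to 0.58).

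Srebf2, which encodes SREBP-2, the factor that drives the genes above, lies on chromosome 15 (82147181 to 82205379, plus strand). It was at 59.1, 77.9, 73.9, 68.8 and 76.1 CPM in the ΔGm15551 mice and at 59.4, 59.4, 63.4, 76.1 and 50.6 CPM in the wild type mice. All ΔGm15551 mice but replicate 1 lay above all wild type mice but replicate 6. The means were 71.2 ± 7.57 and 61.8 ± 9.27 CPM (SD, n = 5 each). The log2FC of 0.20 (SE 0.12, 95% interval -0.06 to 0.47) had the smallest unadjusted p of the 8, 0.120 in edgeR's fit across all genes.

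Insig1, the sterol-sensing brake on SREBP processing and itself an SREBP target, lies on chromosome 5 (28071363 to 28078662, plus strand). It was at 171, 359, 273, 299 and 296 CPM in the ΔGm15551 mice and at 189, 322, 194, 320 and 188 CPM in the wild type mice. The wild type mice fell into a high pair, replicates 3 and 6, and a low trio, while 4 of 5 ΔGm15551 mice lay between or above them. The means were 280 ± 68.6 and 243 ± 71.7 CPM (SD, n = 5 each), with a log2FC of 0.20 (SE 0.22, 95% interval -0.27 to 0.67).

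**Figure D1:**
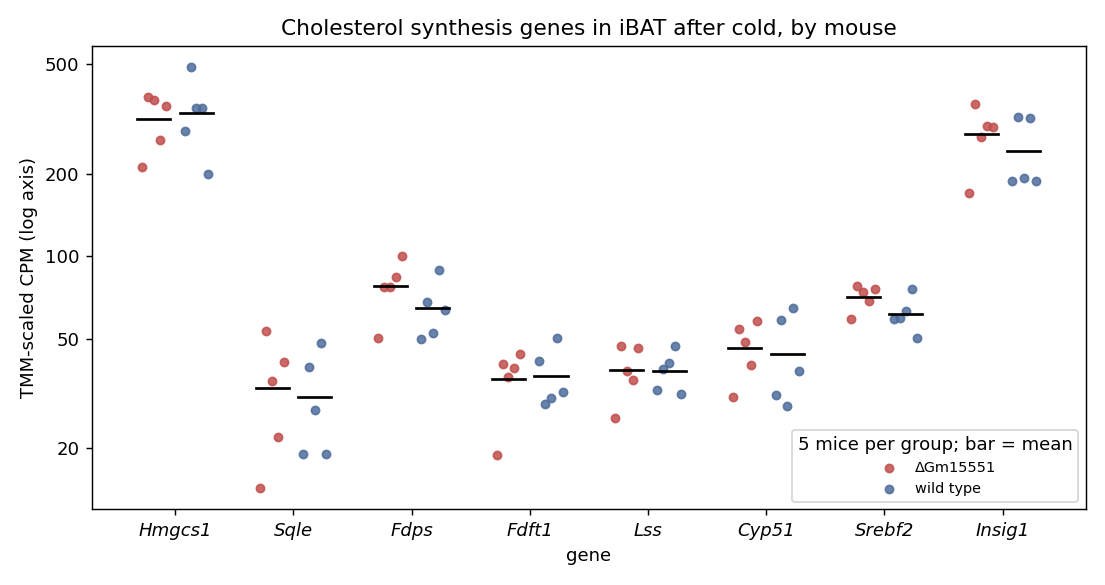
The plot shows TMM-scaled CPM on a log axis for each of the 8 genes, 1 point per mouse (5 ΔGm15551 and 5 wild type), with a bar at the group mean. The groups overlap in all 8 genes, and the distance between the bars is largest relative to the spread in Srebf2 (71.2 ± 7.57 and 61.8 ± 9.27 CPM).

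Taken as a set, 6 of the 8 log2FC were above 0 and 2 below, with a median of 0.09 beside -0.001 over all genes tested. With single mice left out, this median ran from -0.03 (without ΔGm15551 replicate 2) to 0.27 (without wild type replicate 6). It was 0.22 without ΔGm15551 replicate 1 and 0.19 without wild type replicate 3, and just below 0 without ΔGm15551 replicate 7 or wild type replicate 2 or 7. All 8 intervals lay within 1 log2 unit, a 2-fold change, in either direction, as did those of 90.2% of all genes tested. Differences of the sizes within these intervals are not excluded. The count at unadjusted p depended on single mice. It was 2 of 8 (Fdps and Srebf2) without ΔGm15551 replicate 1, where 3.04% of all genes passed, and again 2 (the same 2 genes) without wild type replicate 6, where 1.65% passed. In replicates 2, 5 and 7 of both groups, the 6 mice with shared numbers, it was 5 of 8 (Sqle, Fdps, Cyp51, Srebf2 and Insig1, all higher in ΔGm15551), beside 4.02% of all genes. Those 6 mice leave out both ΔGm15551 replicate 1 and wild type replicate 6, the mice with the lowest and the highest mean of the set. At an adjusted p under 0.05 the count was 0 under all 22 alternatives run, where the lowest adjusted p of any of the 8 was 0.835 (Fdps and Srebf2, edgeR with Benjamini-Hochberg and no filter on low counts).

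**Figure D2:**
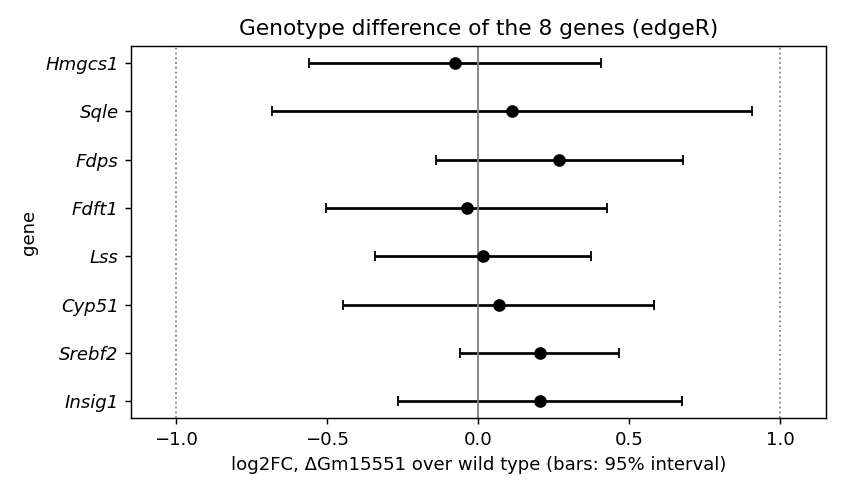
Points show the log2FC of ΔGm15551 over wild type from edgeR for each gene, bars its 95% interval, and dotted lines a change of 1 log2 unit in either direction. All intervals include 0, from the narrowest for Srebf2 (-0.06 to 0.47) to the widest for Sqle (-0.69 to 0.91).

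Compared per length, the levels of the 8 genes spanned a wide range. Over the 10 mice the level per kilobase of exon (CPM per kb) was highest for Insig1 with 84.4 ± 22.3 and Hmgcs1 with 70.7 ± 18.9 (SD). Then came Fdps with 17.0 ± 4.15, Cyp51 with 10.3 ± 3.0, Srebf2 with 9.25 ± 1.31, Fdft1 with 8.58 ± 2.12, Sqle with 5.76 ± 2.44 and Lss with 3.56 ± 0.670. The step from Hmgcs1 to Fdps was the only one between neighbours at which the ranges over mice did not overlap. Fdps was above Cyp51 and Sqle above Lss in 10 of 10 mice, but Insig1 was above Hmgcs1 in 7, Cyp51 above Srebf2 in 6, Srebf2 above Fdft1 in 7 and Fdft1 above Sqle in 8, so that these neighbours were not ordered the same way in every mouse. With the longest annotated transcript as the length, Cyp51 and Srebf2 changed places.

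In 7 of the 8 genes the SD of log2 CPM between mice of 1 genotype exceeded the size of the log2FC, and in Srebf2 it was slightly smaller (0.19 beside 0.20). The SD of log2 CPM within groups had a median of 0.41 over the 8 genes and of 0.27 over all genes tested. It was widest for Sqle at 0.68, above that of 95.1% of all genes tested, followed by Cyp51 at 0.46 (83.2%), Hmgcs1 at 0.42 (79.6%), Fdft1 at 0.42 (79.3%), Insig1 at 0.41 (77.4%), Fdps at 0.35 (68.4%) and Lss at 0.30 (57.6%). Srebf2 stood apart with an SD of 0.19, above only 25.3% of all genes. The transcription factor thus varied less than the enzymes, and its highest mouse was 1.54-fold above its lowest, against 1.83-fold to 3.73-fold in the other 7.

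The same mice were low or high across the set. ΔGm15551 replicate 1 had the lowest value of its group in 8 of 8 genes, while 27.5% of all genes tested were lowest in that mouse. Wild type replicate 7 was lowest of its group in 4 of 8 genes, beside 32.6% of all genes. At the other end, ΔGm15551 replicate 2 was highest of its group in 5 genes (23.1% of all genes tested were highest in it) and replicate 7 in 3 (15.1%). Wild type replicate 6 was highest of its group in 6 genes (15.8% of all genes) and replicate 3 in 2 (23.9%). Together the 8 genes took 0.0590% of the counts in ΔGm15551 replicate 1 and 0.111% in ΔGm15551 replicate 2.

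**Figure D3:**
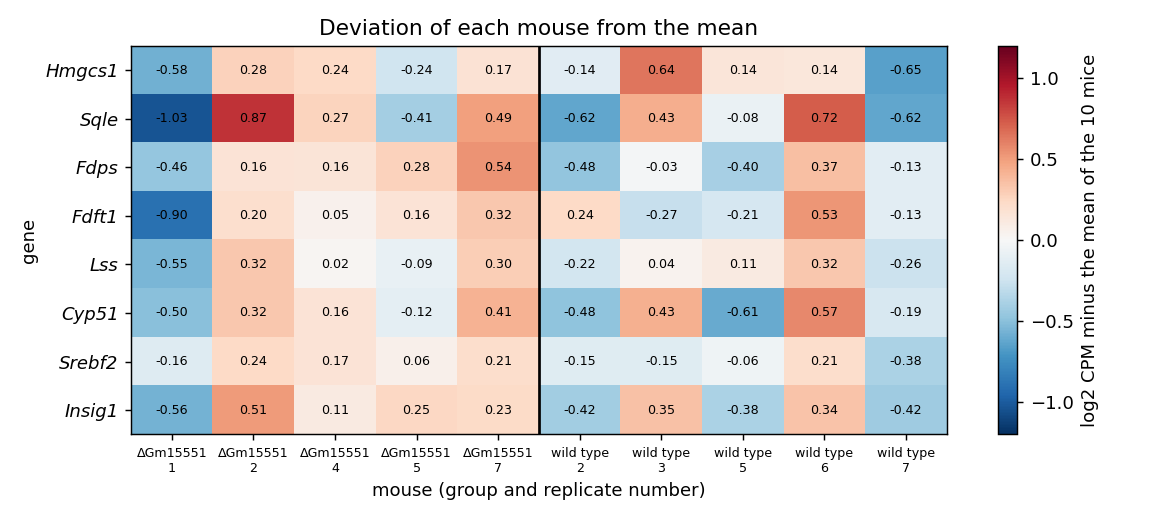
Each cell gives the log2 CPM of a gene (row) in a mouse (column) minus the mean of that gene over the 10 mice, with red above and blue below it, ΔGm15551 to the left of the line and wild type to the right. The column of ΔGm15551 replicate 1 is blue in all 8 rows (-0.16 for Srebf2 to -1.03 for Sqle), as is that of wild type replicate 7 (-0.13 for Fdps and Fdft1 to -0.65 for Hmgcs1), while the columns of ΔGm15551 replicates 2, 4 and 7 and wild type replicate 6 are red in all 8.

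Pairs of the 8 genes therefore moved together over mice. With the mean of each group removed, Pearson's r of log2 CPM over the 10 mice had a median of 0.75 over the 28 pairs (median Spearman's rho 0.69), and 26 pairs were above 0.5. Over all pairs of genes tested the median was -0.001 and 17.3% were above 0.5. The closest pair was Sqle and Lss with r = 0.94, consecutive enzymes of the pathway, and the loosest was Hmgcs1 and Fdft1 with r = 0.36. These values are a description without a test, since all genes of a mouse share 1 library and 1 piece of tissue. They were also computed without 2 mice, ΔGm15551 replicate 1 and wild type replicate 6, which lay farthest from the median of the set's mean. These 2 were picked by the mean of the same 8 genes, and leaving out both ends of that mean lowers r in itself. A lower r without them therefore cannot show how far the values rest on these mice. The share of all gene pairs above 0.5 was not computed for the remaining mice. Without both, the median r was 0.42, from -0.39 to 0.88, and 12 of 28 pairs were above 0.5. Without ΔGm15551 replicate 1 alone it was 0.60, and in the 6 mice with shared numbers it was 0.18, with a median SD of log2 CPM of 0.20.

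How the rest of the pathway followed the 8 genes was read from r with their mean over the 10 mice, each gene centred on its group. Each of the 8 had a median r of 0.85 with the mean of the other 7, from 0.67 for Fdft1 to 0.94 for Sqle. Without the 2 mice named above this median was 0.74, and Fdft1 was at -0.36. Of 16 other synthesis genes, 12 were above 0.5, with a median of 0.83 (0.72 without those 2 mice). Of the others, 3 were below 0, Lbr at -0.78, Ebp at -0.20 and Pmvk at -0.10, which were named after their values were seen. Among all 13083 other genes of at least 1 CPM, 27.4% were above 0.5, 25.8% were below -0.5, and the median was -0.02. A high r with the set was thus common in these libraries.

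The 3 most abundant of the other synthesis genes varied with the set. Acat2, the cytosolic thiolase that supplies acetoacetyl-CoA to Hmgcs1, had r = 0.93 (rho 0.94), Sc5d, a desaturase of a late step, r = 0.93 (rho 0.96), and Idi1, which isomerises the isoprenoid unit, r = 0.88 (rho 0.85). In ΔGm15551 and wild type respectively, Acat2 was at 215 ± 35.9 and 206 ± 46.1 CPM, Sc5d at 87.0 ± 29.7 and 91.6 ± 39.3 CPM, and Idi1 at 73.9 ± 21.2 and 69.6 ± 32.8 CPM (SD, n = 5 each). Of the 16 genes, 0 had an unadjusted p under 0.05, and their median log2FC was 0.04.

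The genes that control SREBP (10 tested) had a median r of 0.65 with the set (0.57 without the 2 mice), with 6 above 0.5. Mbtps1, the protease that makes the first cut in SREBP, had r = 0.76 (0.48 without the 2 mice). Srebf1, which encodes SREBP-1, did not follow the set (r = -0.06). It was at 232, 184, 240, 235 and 306 CPM in the ΔGm15551 mice and at 279, 280, 396, 271 and 261 CPM in the wild type mice. Only ΔGm15551 replicate 7 exceeded any wild type mouse, and the means were 239 ± 43.7 and 297 ± 55.8 CPM (SD, n = 5 each). Its log2FC was -0.31 (SE 0.16, 95% interval -0.65 to 0.02), which missed the threshold also without adjustment (edgeR's fit, unadjusted p = 0.0651). In this list 0 of 10 genes had an unadjusted p under 0.05, with a median log2FC of -0.01.

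Genes of uptake and trafficking followed less closely, with a median r of 0.40 (0.29 without the 2 mice) and 7 of 15 above 0.5. Of the 3 most abundant, Vldlr, a lipoprotein receptor, had r = 0.82, Npc2, a carrier of cholesterol in the lysosome, r = 0.54, and Lipa, the lysosomal acid lipase, r = 0.40. Without the 2 mice these were 0.65, 0.22 and 0.56. The log2FC was 0.07 (SE 0.22) for Vldlr, 0.04 (SE 0.13) for Npc2 and 0.04 (SE 0.14) for Lipa. The single gene of this list with an unadjusted p under 0.05 was Gramd1c, which belongs to a family that carries sterol between the plasma membrane and the endoplasmic reticulum. It was at 1.47, 2.34, 2.46, 1.76 and 2.09 CPM in the ΔGm15551 mice and at 2.42, 3.34, 3.65, 3.32 and 2.87 CPM in the wild type mice. The groups overlapped by ΔGm15551 replicate 4 and wild type replicate 2 alone. The log2FC was -0.63 (SE 0.20, edgeR's quasi-likelihood test, unadjusted p = 0.00891, Benjamini-Hochberg adjusted p = 0.99998), so that it did not pass over all genes. It was 1 of 49 genes tested in the 4 lists, beside 1.60% of all genes at the same limit. Gramd1c had few counts, 20 to 51 per mouse. The number in the 4 lists depended on the mice used. It was 0 without wild type replicates 5, 6 and 7 (1.91% of all genes), so that Gramd1c did not pass there. Without wild type replicate 7 alone it was 3 (2.91%). In the 6 mice with shared numbers it was 5 with the replicate block (2.88%) and 7 without it (4.02%).

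Genes of cholesterol efflux and storage had a median r of -0.34 (-0.26 without the 2 mice), with 1 of 8 above 0.5. Apoe, the lipoprotein component, had r = -0.59 and Nr1h3, the sterol-sensing nuclear receptor LXR alpha, r = -0.25, whereas Abca1, the exporter, had r = 0.40. Without the 2 mice these were -0.79, -0.65 and 0.78. The log2FC was -0.02 (SE 0.23) for Apoe, -0.003 (SE 0.12) for Nr1h3 and -0.21 (SE 0.20) for Abca1, and 0 of 8 genes had an unadjusted p under 0.05. Genes of fatty acid synthesis, listed for comparison, had a median r of 0.70 (8 of 10 above 0.5), or 0.50 without the 2 mice.

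**Figure D4:**
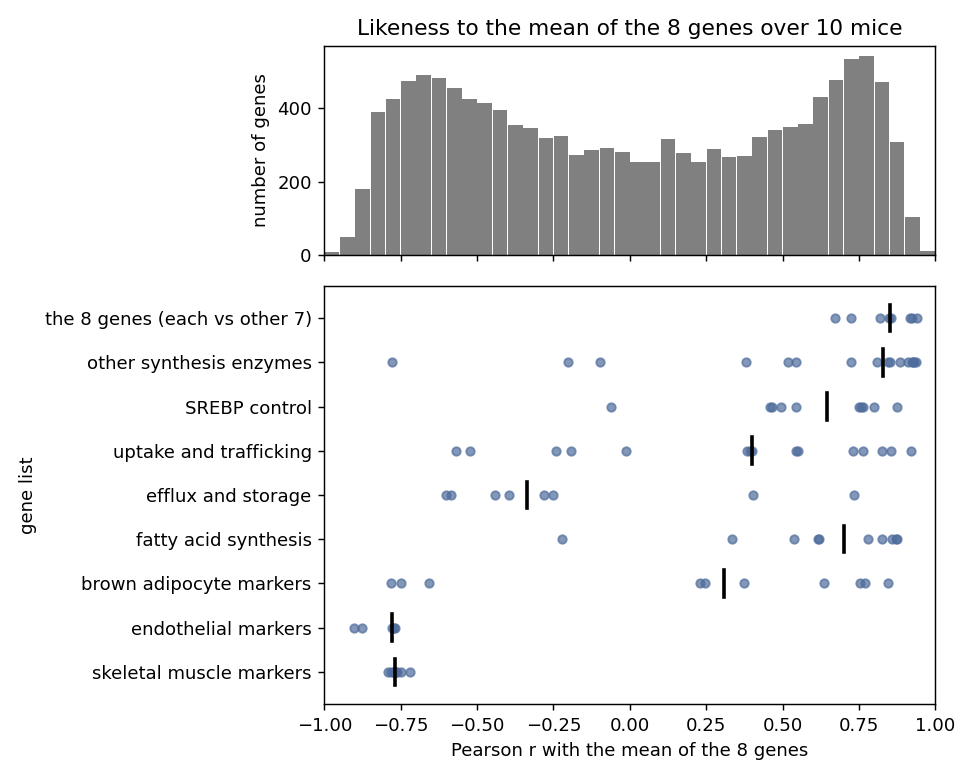
The upper panel counts all 13083 other genes of at least 1 CPM by their Pearson r with the mean of the 8 genes over 10 mice, and the lower panel shows each gene of a list as a point with a bar at the list's median. Most other synthesis enzymes lie to the right (median 0.83, with 12 of 16 above 0.5 and the lowest at -0.78) and endothelial and skeletal muscle markers to the left (medians -0.78 and -0.77), while genes as a whole pile up towards both ends.

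The 5 genes outside the set with the highest r were Klhl5 (r = 0.97, rho 0.98), Tmem8b (r = 0.97, rho 0.99), Dcaf6 (r = 0.97, rho 0.98), Abraxas1 (r = 0.97, rho 0.96) and Syde2 (r = 0.97, rho 0.98), over 10 mice. Without the 2 mice farthest from the median their r was 0.92, 0.93, 0.94, 0.90 and 0.86. None of them belongs to the lists of cholesterol genes.

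Endothelial, skeletal muscle, red blood cell and immune markers each had a negative median r with the set over the 10 mice. All 5 endothelial markers ran against it (r from -0.90 to -0.77; median -0.78, or -0.71 without the 2 mice), and their summed level was 743 to 1267 CPM in ΔGm15551 and 677 to 1154 CPM in wild type. ΔGm15551 replicate 1 and wild type replicate 7 had the highest endothelial level in their groups, and wild type replicate 6 the lowest of all 10 mice. All 10 skeletal muscle markers ran against it as well (r from -0.79 to -0.72, with the same median of -0.77 without the 2 mice), with summed levels of 1.14 to 1916 CPM in ΔGm15551 and 1.37 to 3201 CPM in wild type. With the muscle score as a covariate the median r of the 28 pairs was 0.57, and with the 4 mice of over 0.01% muscle counts left out it was 0.71, against 0.75 in all 10. Red blood cell markers (5 of 5 tested) had a median r of -0.54 (-0.31 without the 2 mice) and summed to 934 to 1751 CPM in ΔGm15551 and 614 to 2544 CPM in wild type. Immune markers (4 of 7 tested) had a median r of -0.34 (0.02 without the 2 mice). All 7 immune markers, tested or not, summed to 15.1 to 27.0 CPM in ΔGm15551 and 17.1 to 26.4 CPM in wild type. Brown adipocyte markers were divided, with 4 of 10 above 0.5, among them Ucp1 with r = 0.85, and Cidea, Cox7a1 and Cox8b below -0.5. Markers of adipocytes in general (7 of 7 tested) had a median r of 0.69, or 0.21 without the 2 mice. The part of these cell types in the joint variation of the 8 genes was not tested.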

How the data were processed

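Per the labels, poly A RNA from iBAT of 10 mice, each a separate animal, was sequenced in paired-end reads. The authors trimmed the reads by quality (cutadapt) and assigned them to GENCODE M22 transcripts (salmon), with GRCm38 as the build. Tool versions are not given in the sources used here. The deposited table holds estimated counts per gene (expected counts), already whole numbers and not scaled to depth. Of the 54347 gene records, 30984 had a count, and 0 rows lacked a gene name. Positions and lengths came from GENCODE M21, which held 99.5% of the gene IDs. Whether counting used the strand is not given in the sources used here.

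The tests used edgeR 4.0.16 in R 4.3.3 (filterByExpr with minimum count 10 and minimum total count 15, TMM, glmQLFit with robust estimation, glmQLFTest, genotype as the only term) over 13733 genes, among them Gm15551, whose counts were too low for the filter and which was added back, with Benjamini-Hochberg adjustment and a threshold of 0.05. The SE was derived from the F statistic. The scripts were tested on simulated data. Correlations used log2 CPM with a prior count of 2. A depth of 9680976 to 15771170 counts limits genes with few counts, and a count of 0 allows up to 3 counts, for counting error only. The members had at least 185 counts in every mouse. Within each group no pair of libraries was a duplicate (smallest chi-square per degree of freedom 12.4).

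The 8 members, the other lists, the tests and the alternatives were chosen with earlier results of these data known. Genes named were the 8, any gene of the 4 other cholesterol lists at an unadjusted p under 0.05 or among the 3 of its list with the highest mean CPM, the 5 genes most alike, Gm15551 and cell type markers. An item that this rule names is not reported here. Alternatives were DESeq2 size factors, library totals, no filter, a filter of 1 CPM in 5 mice, limma-voom (limma 3.58.1), the Wald test of DESeq2 1.42.0, non-robust estimation, leaving out each mouse, 6 mice with and without a replicate block, leaving out wild type replicates 5, 6 and 7 (the higher mouse numbers) or the mice with over 0.01% muscle counts, and a muscle covariate.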

Additional observations from a re-analysis of the deposited data

Results flagged for a closer look

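Over 20 groups of 5 mice, covering the values per mouse reported for the set, Dixon's ratio (critical value 0.71) found 0 outlying mice, where chance gives about 1 in 20.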

How the results depend on the processing

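The number of the 8 genes called was 0 under all 22 alternatives, as was the number among the other cholesterol genes and among all genes. The number at an unadjusted p under 0.05 was 0 to 2 when single mice were left out, 3 (Fdps, Cyp51 and Insig1) with the replicate block in the 6 mice whose numbers occur in both groups and 5 in those mice without it, and 0 elsewhere. In these 6 mice the set's median log2FC was 0.50 with and without the block, while 398 (2.88%) and 554 (4.02%) of 13797 genes passed. Same-numbered mice did not deviate together (r of -0.07, 0.05 and -0.39 for replicates 2, 5 and 7), so the numbers were not taken as pairs.

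The log2FC of Fdps, Insig1 and Srebf2 kept its sign in all 22 alternatives but not its size. It ran from 0.16 (without ΔGm15551 replicate 7) to 0.41 (without wild type replicate 6) for Fdps, from 0.098 (without ΔGm15551 replicate 2) to 0.34 (without ΔGm15551 replicate 1) for Insig1 and from 0.14 to 0.29 (without wild type replicates 7 and 6, each in turn) for Srebf2 when single mice were left out. In the 6 mice, with the block and without it, it was 0.66 and 0.66 for Fdps, 0.74 and 0.74 for Insig1, 0.37 and 0.36 for Srebf2, 0.77 and 0.83 for Sqle, 0.63 and 0.64 for Cyp51 and 0.30 and 0.30 for Lss. Hmgcs1 turned to 0.28 (block) and 0.26 (6 mice unblocked). Fdft1 turned to 0.26 and 0.25 there, to 0.023 without the higher number series and to 0.028 without mice with over 0.01% muscle counts, where Cyp51 was -0.020. Lss was -0.002 with limma-voom. Leaving out single mice gave -0.21 to 0.10 for Hmgcs1, -0.13 to 0.33 for Sqle, -0.12 to 0.12 for Fdft1, -0.068 to 0.13 for Lss and -0.055 to 0.24 for Cyp51. The median r of pairs ran from 0.60 to 0.84 without single mice, and was 0.18 in the 6 mice, 0.57 with the muscle covariate and 0.42 without 2 mice, a setting chosen after seeing the data. The median SD was 0.20 in the 6 mice and 0.31 to 0.44 without single mice. The cause of these changes was not tested.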
